A study of Drosophila melanogaster with 12 samples.

Results

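Loss of bgcn keeps male germ cells of Drosophila melanogaster in division, and testes that lack it were set here against spermatocytes, the meiotic cells that wild-type germ cells become. The comparison is held in 1 of the 4 deposited tables and all of its 618 genes were used, out of 1457 genes named in the 4 tables. The genes were selected by the authors, so every row had already passed their criteria and no row shows a gene without a difference. SG-bgcn is whole testes of the genotype bgcn20093/bgcnQS2, described in the labels as holding mainly germ cells arrested in mitosis, with 2 libraries. SC is meiotic germ cells laser dissected from testes of wild-type flies, with 3 libraries. The remaining groups of the 12 libraries are testes mutant for tut (SG-tut) or bam (SG-bam) and laser-dissected mitotic germ cells (SG), each compared with the same SC libraries in a table of its own. RNA of SG-bgcn was extracted with Trizol, its mRNA was captured on oligo(dT) beads, and its libraries were prepared with Illumina's mRNA-Seq kit, while SC libraries came from SMARTer low-input cDNA and Nextera XT. Genotype, whole testis against dissected cells, and library kit change together between SG-bgcn and SC and cannot be told apart.

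In the male germline a stem cell daughter divides a fixed number of times inside an envelope of somatic cyst cells, stops dividing, and grows as a spermatocyte before meiosis. Bgcn, a protein related to RNA helicases, acts with Bam and Tut on target mRNAs to end these divisions, and germ cells without it go on dividing. A gene can place the cleavage and polyadenylation site of its mRNA at different points, and the stretch between a nearer and a farther end carries sites for RNA-binding proteins and microRNAs that the shorter mRNA lacks. The tables give the level of a stretch for each gene, called an extension here, beside that of the gene itself. The sources used here do not say how an extension was defined. It may therefore hold sequence other than that between a nearer and a farther end of an mRNA. The extension share is the level of the extension as a percentage of the level of the gene, and it was capped by the authors at 100%. It is higher where the extension is higher relative to the gene. A gene was called where the authors' FDR was 0.05 or less, and "higher" or "lower" refers to the share in SG-bgcn relative to SC unless a level is named. The sources used here do not say whether this FDR refers to the extension or to its share.

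The levels are the authors' group averages in a unit that the sources used here do not name, so no replicate error can be given, depth per library is unknown, and levels are compared between groups but not between genes. Every listed gene had a P below 0.05, an extension level that differed more than 2-fold and a share that differed in the same direction. The ratio of P to FDR gives a gene's rank among all tests under Benjamini-Hochberg adjustment, and these ranks were whole numbers only when both directions were treated apart. This gave 5592 tests behind the genes listed as higher in SG-bgcn, with 97% of ranks whole to within 0.01, and 3610 tests behind those listed as higher in SC, with 97.4% of ranks whole. With both directions pooled, 73.9% of ranks were whole. At least 3978 of the 5592 tests (71.1%) and 2993 of the 3610 tests (82.9%) had an FDR of 0.05 or less, and the table lists 8.35% and 4.18% of these tests.

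Of the 618 listed genes 584 were called, which is 94.5%. The extension share was higher in SG-bgcn for 439 called genes (75.2% of the calls; 94.0% of the 467 listed on that side) and higher in SC for 145 (24.8% of the calls; 96.0% of the 151 listed). The share itself differed at least 2-fold in 372 of the 439 genes and in 130 of the 145. The count on the SC side was 71 where genes had a level of at least 1 in both groups, and 85 where the extension was listed above 0 in both. Among the 439 genes the median share in the authors' deposited table was 17.3% in SG-bgcn and 1.03% in SC, and the median extension level was 3.50 in SG-bgcn and 0.139 in SC. Among the 145 genes the median share was 0.0999% in SG-bgcn and 3.68% in SC. That median rests partly on genes hardly present in SG-bgcn, and over genes with a level of at least 1 in both groups it was 0.313% in SG-bgcn and 3.73% in SC. A share above 10% was listed in SG-bgcn for 263 of the 439 genes, against 80 of the same genes in SC. The share was at the cap of 100% in SG-bgcn for 45 of the 439 genes, and in SC for 17 of the 145. Of the 145 genes 60 had an extension at 0 in SG-bgcn, and of the 439 genes 12 had one at 0 in SC.

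**Figure D1:**
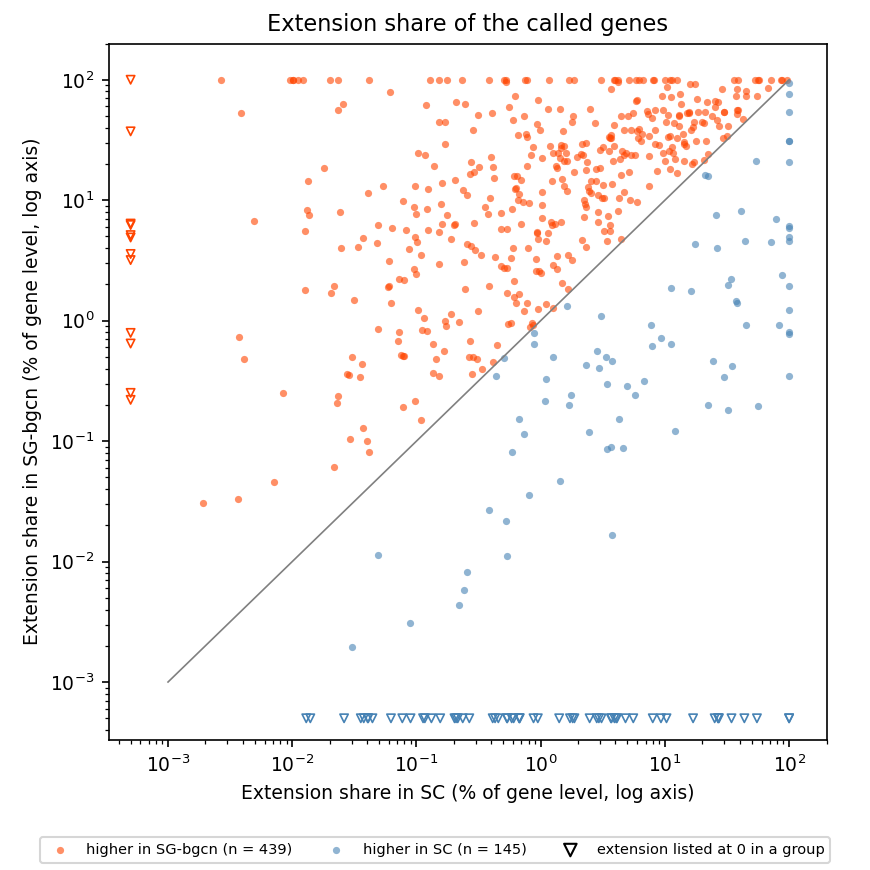
Extension share of the 584 called genes, in SG-bgcn on the vertical and in SC on the horizontal axis, both in percent of the gene level on log axes. Each point is 1 gene, open triangles at the edge are genes whose extension is listed at 0 in 1 group, and the line marks equal shares: 439 genes lie above it and 145 below it.

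Gene levels did not follow the extension in every gene. Of the 439 genes with a higher share in SG-bgcn, 245 had a gene level more than 1.5-fold higher in SG-bgcn, 109 a level more than 1.5-fold lower, and 85 a level within 1.5-fold. Of the 145 genes with a higher share in SC, 32 had a higher gene level in SG-bgcn, 94 a lower one and 19 a level within 1.5-fold. The median gene level of the 439 genes was 31.73 in SG-bgcn and 17.45 in SC, and that of the 145 genes was 2.12 in SG-bgcn and 46.65 in SC. A gene level below 1 in SG-bgcn was listed for 68 of these 145 genes.

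The folds of the extension left a gap on 1 side. Among listed genes higher in SG-bgcn with an extension above 0 in both groups, 165 had a fold of 2.01 to 10.3, 288 had a fold of 17.3 or more, and none lay between. On the SC side the smallest listed fold was 5.15, and 37 of 90 genes had a fold below 17.3. The other tables had such a gap as well, for SG-tut above 8.65-fold and for SG-bam above 10.01-fold. Folds under 5.15 were thus listed in 1 direction only. With a 16-fold difference of the extension asked of both directions, 283 genes were called higher in SG-bgcn and 116 higher in SC. These counts include extensions at 0 in 1 group, 12 of the 283 and 60 of the 116, whose fold has no measured size. The 156 called genes under the gap had a median share of 10.2% in SG-bgcn and 1.36% in SC and a median gene level of 39.28 in SG-bgcn and 35.91 in SC. The 283 called genes over the gap had a median share of 21.3% in SG-bgcn and 0.776% in SC, with a median gene level of 29.15 in SG-bgcn and 8.65 in SC.

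**Figure D2:**
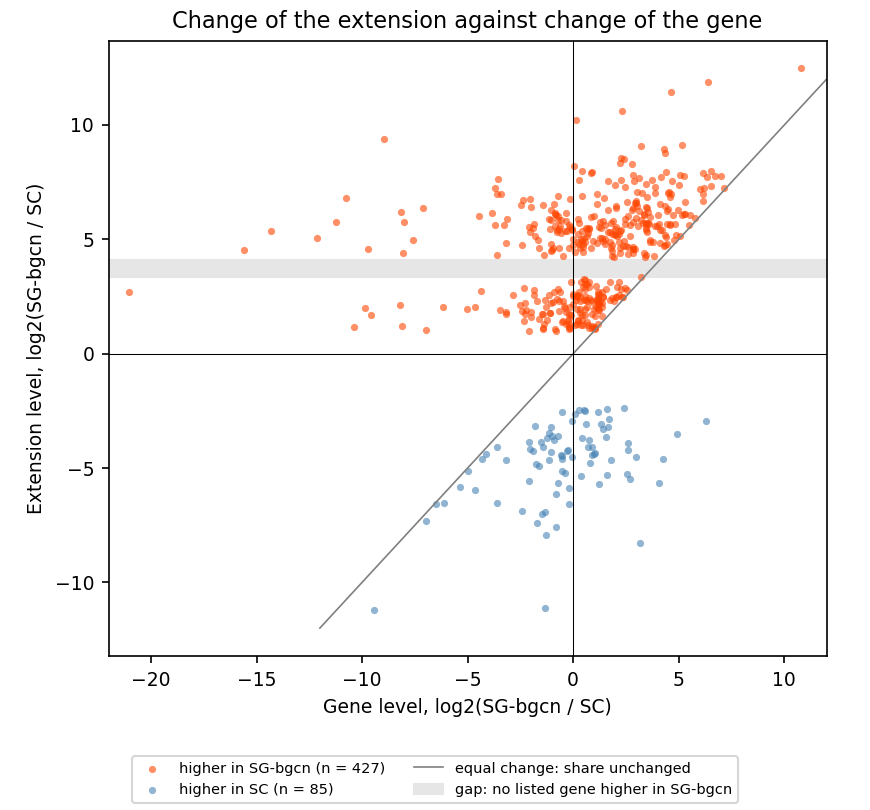
Log2 fold (SG-bgcn over SC) of the extension level against that of the gene level, for called genes with an extension above 0 in both groups (427 higher in SG-bgcn, 85 higher in SC). The diagonal marks an equal change of both, and the grey band marks the range of extension folds between 10.3-fold and 17.3-fold in which no listed gene higher in SG-bgcn falls.

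Some extensions differed while the gene as a whole did not differ much. Called genes with an extension above 0 in both groups were 427 higher in SG-bgcn (83.4%) and 85 higher in SC. In 100 of these the gene level differed less than 1.5-fold, with a similar split of 82 higher in SG-bgcn and 18 higher in SC. CG9153 had the largest such difference: in the authors' deposited table its share was 14.5% in SG-bgcn and 0.0134% in SC, with gene levels of 50.6 in SG-bgcn and 45.7 in SC and an FDR of 1.5e-22. CkIIalpha-i3, named for binding the catalytic subunit of casein kinase II, had a share of 11.5% in SG-bgcn and 0.0405% in SC in the authors' deposited table, with gene levels of 53.03 in SG-bgcn and 51.1 in SC. RpII15, a subunit of RNA polymerase II, had a share of 3.52% in SG-bgcn and 0.108% in SC in the authors' deposited table, at gene levels of 128 in SG-bgcn and 128 in SC. CG10435 went the other way, with a share of 0.421% in SG-bgcn and 34.8% in SC in the authors' deposited table, at gene levels of 32.4 in SG-bgcn and 36.8 in SC (FDR 4.9e-23). The extensions of CG9153 and CG10435 cover exons of a neighbour on the same strand, Myo61F and CG11052, so the reads counted there may belong to either gene, and whether counting used the strand is unknown.

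The extensions of the 2 directions differed in length and place. Lengths ran from 200 bases upward, with a median of 690 bases for the 439 genes higher in SG-bgcn and 373 bases for the 145 higher in SC. Against the Ensembl annotation of the same assembly, which held 431 of the 439 genes and all 145 of the others, 151 extensions higher in SG-bgcn (35.0%) lay inside the annotated gene, 127 (29.5%) crossed its end and 153 (35.5%) lay downstream. Of those higher in SC, 10 (6.9%) lay inside, 22 (15.2%) crossed the end and 113 (77.9%) lay downstream. The gene's own annotated 3′ UTR was touched by 252 extensions higher in SG-bgcn (58.5%) and by 28 higher in SC (19.3%). An exon of another gene was touched by 70 extensions higher in SG-bgcn (15.9% of the 439) and by 24 higher in SC (16.6% of the 145). No base was shared between the extensions of any pair of listed genes on the same strand, although 7 extensions covered exons of another listed gene, as those of CG15863 over Mef2 and CG11377 over Sam-S did.

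**Figure D3:**
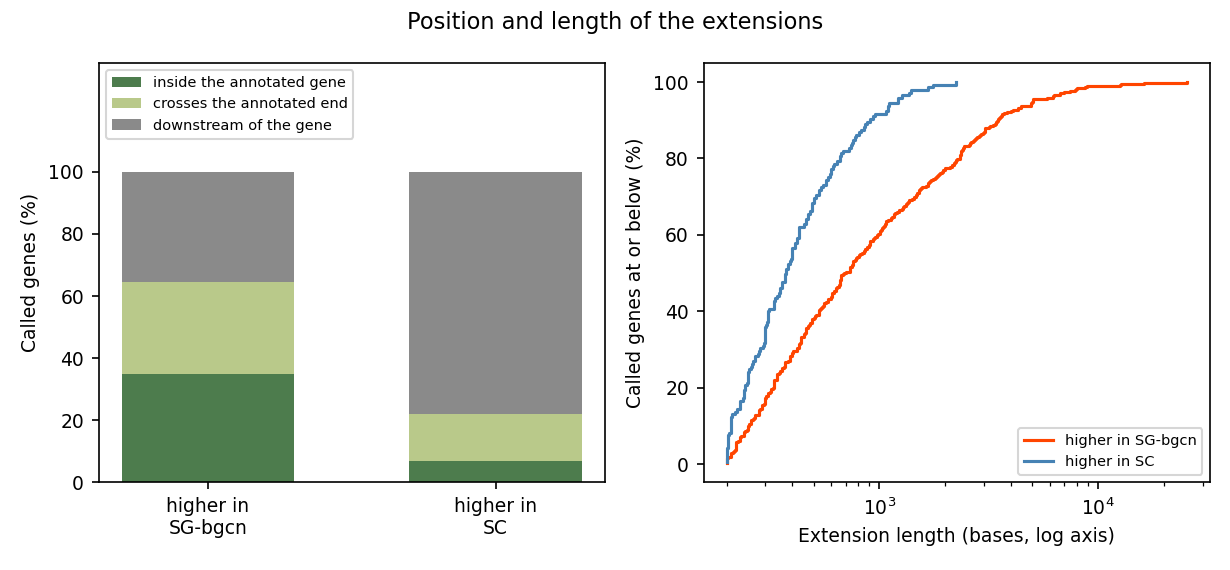
Left, percentage of called genes whose extension lies inside the annotated gene, crosses its annotated end or lies downstream (431 genes higher in SG-bgcn, 145 higher in SC). Right, cumulative percentage of called genes by extension length in bases on a log axis, where the curve of genes higher in SG-bgcn (median 690) lies to the right of that of genes higher in SC (median 373).

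Some extensions overlapped coding sequence. Annotated coding exons of the same gene were touched by 68 extensions higher in SG-bgcn (15.8%) and by 2 higher in SC (1.38%), in some of them by few bases. par-1, a kinase of cell polarity, had an extension of 6270 bases at chr2R:19467844-19474113 in dm6 coordinates on the plus strand, of which 2984 bases are annotated coding sequence. Its share was 27.8% in SG-bgcn and 0.871% in SC in the authors' deposited table (FDR 1.7e-78). Sik3, a salt-inducible kinase, had 2336 coding bases in an extension of 3990 bases and a share of 44.7% in SG-bgcn and 0.151% in SC in the authors' deposited table. Its extension level was 3.72 in SG-bgcn and 0.899 in SC and its gene level 8.33 in SG-bgcn and 594 in SC, so the gene level differed more than the extension. CG15071 lies within the locus of Sik3, and its part in that level was not tested. koi, which encodes a SUN-domain protein of the inner nuclear membrane, had 1823 coding bases in 3410 and a share of 14.4% in SG-bgcn and 1.23% in SC in the authors' deposited table. mud, the NuMA homologue that ties the spindle to the cortex, had 2250 coding bases in 3530 and a share of 43.7% in SG-bgcn and 2.75% in SC in the authors' deposited table. pyd, a ZO-1 homologue of cell junctions, had 4178 coding bases in 6990 and a share of 34.7% in SG-bgcn and 3.696% in SC in the authors' deposited table. mbl, the muscleblind splicing regulator, had the longest extension, 25410 bases with 3779 coding, and a share of 18.03% in SG-bgcn and 2.79% in SC in the authors' deposited table.

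Genes were sorted into 38 lists by function, which took in 262 of the 618 listed genes. The background for every list is the 75.2% of called genes higher in SG-bgcn and a median log2 fold of the share of 2.07 over all called genes. In 13 lists every called member was higher in SG-bgcn, but most of these lists hold few genes, a gene can stand in several lists, and no list was tested.

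**Figure D4:**
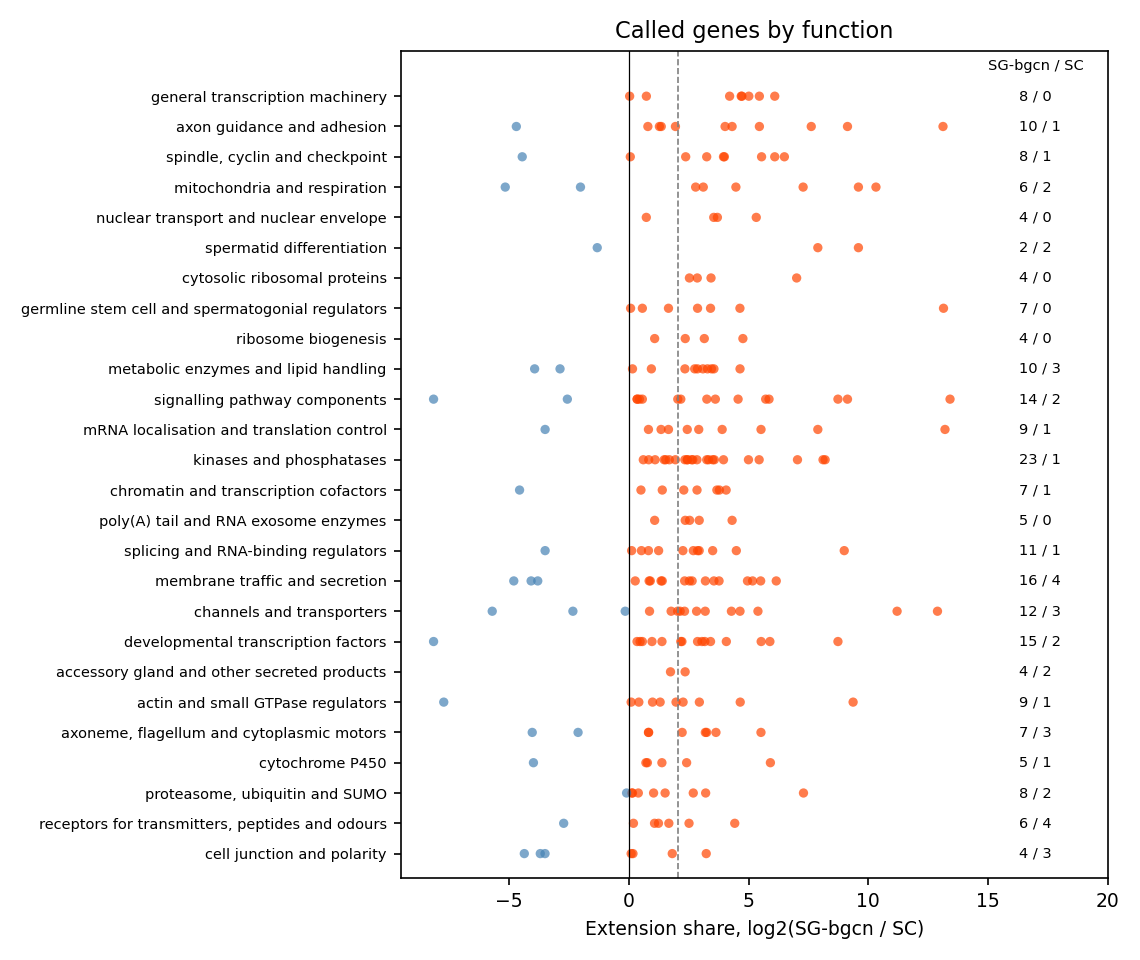
Log2 fold (SG-bgcn over SC) of the extension share for called genes in each list with at least 4 called members, 1 point per gene with an extension above 0 in both groups, red for genes higher in SG-bgcn and blue for genes higher in SC. Numbers at the right count all called members on each side, and the dashed line marks the median of all called genes, 2.07.

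Neither bgcn, bam nor tut is listed, so the targeted gene could not be read in these data. mei-P26, a TRIM-NHL protein that acts with Bam and Bgcn to limit germ cell divisions, was called: in the authors' deposited table its share was 19.4% in SG-bgcn and 0.776% in SC. Its extension of 3040 bases lies wholly in its annotated 3′ UTR at chrX:9172930-9175969, its extension level was 5.88 in SG-bgcn and 0.199 in SC, and its gene level was 30.4 in SG-bgcn and 25.6 in SC, so the extension moved far more than the gene. All 7 listed regulators of germline stem cells and spermatogonia were called and higher in SG-bgcn, at a median log2 fold of the share of 2.87. They include A2bp1, whose share was at the cap of 100% in SG-bgcn and 0.0101% in SC. Its gene level was 0.51 in SG-bgcn and 2320 in SC, and 3 other annotated genes lie within its locus. pum, a translational repressor of stem cell maintenance, had a share of 33.6% in SG-bgcn and 10.7% in SC in the authors' deposited table. lola, a BTB-domain transcription factor, had a share of 5.73% in SG-bgcn and 0.538% in SC in the authors' deposited table. dsx, the sex-determination transcription factor, had 28.4% in SG-bgcn and 3.88% in SC. The gene level of dsx was 6.81 in SG-bgcn and 0.61 in SC, and its extension level 1.93 in SG-bgcn and 0.0237 in SC. how and Stat92E, an RNA-binding protein and the JAK-STAT transcription factor of stem cells, differed little in share: in the authors' deposited table how had 21.6% in SG-bgcn and 20.6% in SC at gene levels of 60.3 in SG-bgcn and 1.81 in SC. Stat92E had 56.03% in SG-bgcn and 37.9% in SC in the authors' deposited table, at gene levels of 72.6 in SG-bgcn and 14.9 in SC.

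The genes of the RNA polymerase II machinery were higher in SG-bgcn throughout. All 8 listed members were called and higher in SG-bgcn, with a median log2 fold of the share of 4.71 while the median log2 fold of their gene level was 0.24. CycT, the cyclin of the elongation kinase P-TEFb, had a share of 50.3% in SG-bgcn and 0.737% in SC in the authors' deposited table, at gene levels of 20.8 in SG-bgcn and 35.5 in SC (FDR 1.2e-10). Nf-YB, a subunit of a promoter-binding factor, had a share of 4.49% in SG-bgcn and 0.102% in SC in the authors' deposited table, at gene levels of 47.6 in SG-bgcn and 48.9 in SC. Trf2, a TBP-related factor, had a share of 26.9% in SG-bgcn and 1.45% in SC in the authors' deposited table. Eaf, a partner of the elongation factor ELL, had a share of 15.8% in SG-bgcn and 0.609% in SC in the authors' deposited table, and all 1180 bases of its extension lie in its annotated 3′ UTR. TfIIFalpha had a share of 10.4% in SG-bgcn and 0.393% in SC in the authors' deposited table, but its extension touches an exon of its neighbour gzl. Taf4 and the Mediator subunit MED11 differed least, Taf4 with a share of 0.956% in SG-bgcn and 0.576% in SC in the authors' deposited table and MED11 with 1.28% in SG-bgcn and 1.25% in SC.

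Among the enzymes that form and remove mRNA ends, only Clp was called in the cleavage and polyadenylation list, and it was higher in SC. Clp, the fly homologue of an RNA-binding subunit of the cleavage and polyadenylation specificity factor, had a share of 0.461% in SG-bgcn and 3.73% in SC in the authors' deposited table (FDR 0.032), and its extension touches an exon of CG3662. In the list of poly(A) tail and exosome enzymes, which also holds gw, 5 of 7 listed members were called, all higher in SG-bgcn. The extensions of 2 of these 5, Rrp4 and Rrp40, touch an exon of another gene. PAN2, a deadenylase subunit, had a share of 12.5% in SG-bgcn and 0.626% in SC in the authors' deposited table, and Gld2, a cytoplasmic poly(A) polymerase needed in the male germline, had 17.9% in SG-bgcn and 2.34% in SC. gw, the effector protein of microRNA silencing, had a share of 0.997% in SG-bgcn and 0.171% in SC in the authors' deposited table, and 2420 of the 2770 bases of its extension lie past the annotated end of the gene.

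RNA-binding proteins were mostly higher in SG-bgcn. In the splicing list 11 of 12 called genes were higher in SG-bgcn, and in the list of mRNA localisation and translation control 9 of 10. aret, the Bruno translational repressor, was the exception in both: in the authors' deposited table its share was 6.98% in SG-bgcn and 78.8% in SC, with an extension of 0.258 in SG-bgcn and 12.3 in SC and an FDR of 2.2e-48. Its 760-base extension is annotated 3′ UTR, and aret is listed in no other mutant table. SF1, the branch-point binding protein, had a share of 55.3% in SG-bgcn and 7.21% in SC in the authors' deposited table, and Caper, a splicing factor, had 6.52% in SG-bgcn and 0.2897% in SC. Rb97D, an hnRNP, had 61.6% in SG-bgcn and 0.1198% in SC, but its extension touches SPARC. Among the 12 called genes of the splicing list 3 had an extension that touches an exon of another gene. Imp, an mRNA-binding protein of the stem cell niche, had a 6660-base extension with a share of 43.2% in SG-bgcn and 0.941% in SC in the authors' deposited table. stau, a double-stranded RNA binder that localises mRNA, had a share of 4.13% in SG-bgcn and 0.277% in SC in the authors' deposited table. orb, a CPEB-family regulator of poly(A) tails, had a share of 13.001% in SG-bgcn and 0.0537% in SC in the authors' deposited table although its gene level was 31.3 in SG-bgcn and 379 in SC, and all 2340 bases of its extension lie in its 3′ UTR. YT521-B, a reader of methylated adenosine, differed in level and hardly in share, with 24.1% in SG-bgcn and 22.3% in SC in the authors' deposited table at gene levels of 54.4 in SG-bgcn and 0.39 in SC. eRF1, the translation release factor, had an extension level of 95.2 in SG-bgcn and 42.8 in SC and a share of 35.6% in SG-bgcn and 14.03% in SC in the authors' deposited table (FDR 2.6e-61).

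Of 4 listed ribosomal protein genes 3 had a share that can be read, and these were higher in SG-bgcn at shares far below 1%. RpL37a had a share of 0.0306% in SG-bgcn and 0.00193% in SC in the authors' deposited table, at gene levels of 4207 in SG-bgcn and 389 in SC, and RpL10 and RpS15Aa were alike at 0.0328% in SG-bgcn and 0.00367% in SC for RpL10 and 0.0459% in SG-bgcn and 0.00713% in SC for RpS15Aa. For RpL5 the table has 0 as gene level in SG-bgcn, beside an extension of 1.07 in SG-bgcn and 0.165 in SC; every cell needs this gene, so its listed share of 100% in SG-bgcn is not read.

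Cell-cycle genes followed the majority. Of 9 called genes for spindle, cyclins and checkpoints 8 were higher in SG-bgcn. stg, the Cdc25 phosphatase that starts mitosis, had a gene level of 20.4 in SG-bgcn and 0.57 in SC in the authors' deposited table, an extension of 5.08 in SG-bgcn and 0.00914 in SC, and a share of 24.9% in SG-bgcn and 1.61% in SC (FDR 5.0e-12). Rcd4 and Rcd5, both named in a screen for centrosome defects, went opposite ways: Rcd4 had a share of 8.78% in SG-bgcn and 0.0963% in SC in the authors' deposited table and Rcd5 0.0357% in SG-bgcn and 0.804% in SC, each at a gene level within 1.5-fold. dgt4, an augmin subunit, had a share of 35.8% in SG-bgcn and 0.767% in SC in the authors' deposited table, but its extension runs over tyf, which is also listed. asl, a centriole protein, had an extension level of 129.9 in SG-bgcn and 33.6 in SC. Its gene level was 40.3 in SG-bgcn and 35.0 in SC. Its share was 95.96% in SC and 100% in SG-bgcn, where the extension exceeded the gene and the cap applied. Of 24 called kinases and phosphatases 23 were higher in SG-bgcn and 10 of the 24 extensions touch coding exons of the gene. Pk34A was the exception, with an extension listed at 0 in SG-bgcn and a gene level of 0.03 in SG-bgcn and 246 in SC in the authors' deposited table.

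Signalling genes and transcription factors were higher in SG-bgcn in 14 of 16 and 15 of 17 called genes. Su(fu), a negative regulator of Hedgehog signalling, had a share of 9.25% in SG-bgcn and 0.159% in SC in the authors' deposited table, and S, the EGF-pathway protein Star, had 34.7% in SG-bgcn and 0.661% in SC, both at gene levels within 1.5-fold. Jra and kay, the fly Jun and Fos, had 100% in SG-bgcn and 1.69% in SC for Jra and 11.2% in SG-bgcn and 0.667% in SC for kay in the authors' deposited table. The 100% of Jra is the cap, as its extension level in SG-bgcn, 52.2, exceeded its gene level, 25.4. N, the Notch receptor, differed in level, 11.2 in SG-bgcn and 0.51 in SC, and little in share, 40.95% in SG-bgcn and 32.1% in SC in the authors' deposited table. cwo, a repressor of the circadian clock, was the largest exception, with a share of 0.194% in SG-bgcn and 55.7% in SC in the authors' deposited table although its gene level was 11.5 in SG-bgcn and 1.78 in SC.

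In the cell junction and polarity list 4 of 7 called genes were higher in SG-bgcn and 3 were higher in SC. Ilk and parvin, which form one complex at integrin adhesions, had higher shares in SC. Ilk had 0.118% in SG-bgcn and 2.46% in SC and parvin had 0.3001% in SG-bgcn and 3.41% in SC in the authors' deposited table. yrt, a FERM-domain polarity protein, had 0.721% in SG-bgcn and 9.38% in SC in the authors' deposited table, while alpha-Cat, pyd, sdt and wech were higher in SG-bgcn. In membrane traffic 16 of 20 called genes were higher in SG-bgcn, which is close to the 75.2% of all called genes, such as Rab6, a Golgi GTPase, with a share of 18.5% in SG-bgcn and 1.36% in SC in the authors' deposited table (FDR 1.1e-24). The 4 that were higher in SC included Sec24AB of COPII, with 0.289% in SG-bgcn and 4.92% in SC in the authors' deposited table. They also included epsilonCOP of COPI, with 0.0267% in SG-bgcn and 0.386% in SC. Coat subunits were not all on that side, as AP-2mu of the clathrin adaptor had 5.64% in SG-bgcn and 0.123% in SC. Among the dynein light chains robl had a share of 1.49% in SG-bgcn and 0.0316% in SC in the authors' deposited table and ctp had 0.6399% in SG-bgcn and 0.136% in SC, while robl37BC, a relative of robl, was on the SC side with its extension listed at 0 in SG-bgcn at gene levels of 0.02 in SG-bgcn and 204 in SC. gammaTub37C, a gamma-tubulin known from the female germline, had an extension level of 0.0506 in SG-bgcn and 112 in SC in the authors' deposited table, but its extension touches an exon of CG46059.

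Few genes of meiosis and sperm formation are listed. aly, a regulator of spermatocyte transcription, had a gene level of 18.2 in SG-bgcn and 72.7 in SC in the authors' deposited table and a share of 8.43% in SG-bgcn and 0.588% in SC. In the list of spermatid differentiation 2 of 4 called genes were higher in SG-bgcn and 2 were higher in SC. fzo, the mitofusin of spermatids, had a gene level of 0.93 in SG-bgcn and 245 in SC in the authors' deposited table. Its share was 0.129% in SC and at the cap of 100% in SG-bgcn, where its extension level was 6.76. fan, a VAP-family protein of spermatids, had a gene level of 75.8 in SG-bgcn and 1892 in SC. fan was higher in SC in share as well, with 0.503% in SG-bgcn and 1.26% in SC. soti, which limits caspase activity in spermatids, had a gene level of 0.08 in SG-bgcn and 1673 in SC in the authors' deposited table and an extension listed at 0 in SG-bgcn. The testis-specific proteasome subunit gene Prosalpha4T2 had a gene level of 0.01 in SG-bgcn and 188 in SC, with an extension listed at 0 in SG-bgcn in the authors' deposited table. mei-W68, the Spo11 homologue that cuts DNA in meiosis, was listed with the same gene level as par-1, 68.5 in SG-bgcn and 9.62 in SC, and its 7942-base extension lies over par-1 exons, so its share of 9.47% in SG-bgcn and 0.809% in SC in the authors' deposited table cannot be told apart from par-1.

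SG-bgcn is a whole testis, and the somatic marker genes that are listed were read for other cells. Of 7 markers of hub and cyst cells 2 are listed: zfh1 with a gene level of 8.98 in SG-bgcn and 2.7 in SC and dally with 0.15 in SG-bgcn and 139 in SC, where 3 other annotated genes lie within the locus of dally. Of 5 markers of muscle and sheath Tm1 had a gene level of 213 in SG-bgcn and 18.2 in SC and Mef2 6.81 in SG-bgcn and 1.61 in SC in the authors' deposited table. The accessory gland gene Acp95EF had a gene level of 2120.4 in SG-bgcn and 349 in SC in the authors' deposited table. All 3 called genes of the muscle list, Tm1, Tm2 and Mef2, were also higher in extension share, with 86.3% in SG-bgcn and 10.4% in SC for Mef2. The part of these cells in the shares was not tested, and in bulk RNA fewer cells of a type and less RNA per cell cannot be told apart. Markers that are not listed have no value here.

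The split of called genes by direction differed between chromosomes. Of all called genes 75.2% were higher in SG-bgcn and 24.8% higher in SC. Of called genes on the X chromosome 79 were higher in SG-bgcn and 8 higher in SC, against 60 and 40 on arm 2L, 87 and 32 on 2R, 80 and 27 on 3L, and 121 and 37 on 3R. Chromosome 4 had 12 higher in SG-bgcn and 1 higher in SC, and the Y chromosome had no listed gene. How many genes were tested on each chromosome is unknown, and the differences between chromosomes were not tested. Of the 145 genes higher in SC, 68 had a gene level below 1 in SG-bgcn, and these were not counted by chromosome.

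A gene's absence from another table says that it was not selected there, not that it did not differ, since no values are given for it. By symbol, 153 of the 618 genes were listed for no other mutant, and 134 of these were called, 92 higher in SG-bgcn (68.7%) and 42 higher in SC. Some of the 134 are listed for the dissected SG, 27 genes with 23 higher in SG-bgcn (85.2%). The other 107 stand in no other table, with 69 higher in SG-bgcn (64.5%). Of the 269 called genes listed for SG-tut and SG-bam as well, 219 were higher in SG-bgcn (81.4%) and 50 higher in SC. A further 101 called genes were shared with SG-tut only and 80 with SG-bam only. The SG-tut table held 381 of the 618 genes, 61.7% of the SG-bgcn table and 60.8% of its own 627 genes, and the SG-bam table held 358, or 57.9% and 56.1% of its 638. The extension itself had identical ends in 164 of the 381 genes shared with SG-tut and 125 of the 358 shared with SG-bam, and all but 1 of the others overlapped. That exception is CG17237, whose extension lay apart in SG-bam and which moved the opposite way there.

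**Figure D5:**
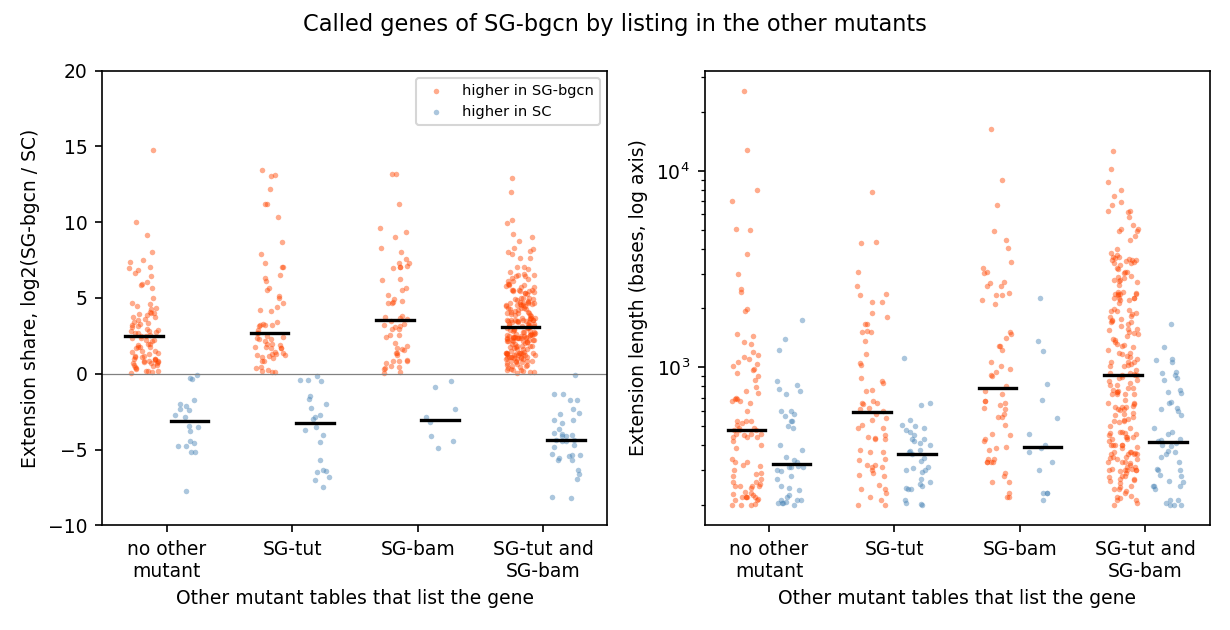
Called genes of SG-bgcn by the other mutant tables that list them, with genes higher in SG-bgcn in red and genes higher in SC in blue. Left, log2 fold (SG-bgcn over SC) of the extension share where the extension is above 0 in both groups; right, extension length in bases on a log axis; bars mark medians, which for genes higher in SG-bgcn run from 480 bases with no other mutant to 910 bases with SG-tut and SG-bam.

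Genes listed for SG-bgcn alone among the mutants had shorter extensions and less coding sequence in them. The 92 such genes higher in SG-bgcn had a median extension of 480 bases and a median share of 14.7% in SG-bgcn and 1.36% in SC, and 5 of their 90 annotated extensions (5.56%) touched the gene's own coding exons. The 219 genes shared with both other mutants had a median of 910 bases, a median share of 20.8% in SG-bgcn and 1.10% in SC, and 45 of 214 (21.03%) over coding exons. The 42 genes higher in SC and listed for no other mutant had a median gene level of 0.505 in SG-bgcn and 151.31 in SC, and 22 of them had an extension at 0 in SG-bgcn. The 50 higher in SC and shared with both had a median gene level of 5.55 in SG-bgcn and 20.645 in SC, with 15 extensions at 0 in SG-bgcn. These sets were compared by their values only.

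CG9153, given above, had the largest fold of the share among genes listed for no other mutant with a gene level of at least 1 and an extension above 0 in both groups. 140up had a share of 96.7% in SG-bgcn and 0.527% in SC in the authors' deposited table, but its extension touches Abi, as that of CG15863, with 29.1% in SG-bgcn and 0.171% in SC, touches Mef2. CG13315 had a share of 5.62% in SG-bgcn and 0.0831% in SC in the authors' deposited table at gene levels of 317 in SG-bgcn and 58.9 in SC. Lrr47 and Cyp6a2, a cytochrome P450, are listed for the dissected SG too: in the authors' deposited table Lrr47 had 12.3% in SG-bgcn and 0.124% in SC, and Cyp6a2 had 16.4% in SG-bgcn and 0.271% in SC. In the dissected SG the share of Lrr47 was 14.2% and that of Cyp6a2 16.5%. On the SC side Atg4b, a protease of autophagy, had a share of 2.39% in SG-bgcn and 87.6% in SC, and Bap55, a subunit of the Brahma chromatin remodeller, had 0.242% in SG-bgcn and 5.76% in SC in the authors' deposited table. ATPsynG, a subunit of mitochondrial ATP synthase, had 0.00579% in SG-bgcn and 0.242% in SC in the authors' deposited table at gene levels of 1035 in SG-bgcn and 506 in SC.

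The 3 mutant tables share the SC libraries, so their values are given beside each other without a measure of likeness. Each table also sets its own ends of the extension, so the share in SC of 1 gene differs between tables where the ends differ. For the 219 shared genes higher in SG-bgcn, the median share was 20.8% in SG-bgcn, 18.4% in SG-tut and 19.5% in SG-bam, against 1.10%, 1.03% and 1.20% in SC for the same tables. For the 50 shared genes higher in SC, it was 0.198% in SG-bgcn, 0.459% in SG-tut and 0.763% in SG-bam, against 10.2%, 10.2% and 11.6% in SC. ppl, a subunit of the glycine cleavage system, had shares of 6.76% in SG-bgcn, 7.54% in SG-tut and 7.51% in SG-bam, against 0.00492%, 0.00611% and 0.00577% in SC, in the authors' deposited tables. Sik3 had 44.7% in SG-bgcn, 43.04% in SG-tut and 36.1% in SG-bam, against 0.151%, 0.1507% and 0.1503% in SC. Rb97D had 61.6% in SG-bgcn, 24.996% in SG-tut and 27.1% in SG-bam, against 0.12%, 0.211% and 0.211% in SC, and its SG-bgcn extension touches SPARC. Jra was listed at 100% in SG-bgcn, 26.5% in SG-tut and 72.8% in SG-bam, against 1.69%, 0.190% and 0.374% in SC. Elp3, the catalytic subunit of Elongator, had 0.0901% in SG-bgcn, 0.111% in SG-tut and 0.147% in SG-bam, against 3.71%, 4.08% and 4.27% in SC. cwo had 0.194% in SG-bgcn, 0.439% in SG-tut and 0.44% in SG-bam, against 55.7%, 57.8% and 55.7% in SC, in the authors' deposited tables. All 4 tables list 131 of the called genes, 115 higher in SG-bgcn and 16 higher in SC.

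Some genes had a level of their own that was far lower in SG-bgcn. In 66 called genes the gene level was 50 or more in SC and at least 50-fold lower in SG-bgcn, 19 with a higher share in SG-bgcn and 47 with a higher share in SC. Of the 19, 11 (57.9%) hold another annotated gene within the locus that the authors give, at a median locus of 17.7 kb, against 77 of the other 420 genes higher in SG-bgcn (18.3%) at 5.60 kb. Of the 47, none holds such a gene, at a median locus of 1.31 kb, against 15 of the other 98 genes higher in SC (15.3%) at 2.40 kb. The extension is listed at 0 in SG-bgcn for 44 of the 47 and for 16 of the 98. A2bp1, an RNA-binding protein of the Rbfox family that acts in the germline, had a gene level of 0.51 in SG-bgcn and 2320.3 in SC and an extension of 7.74 in SG-bgcn and 0.234 in SC in the authors' deposited table, and S-Lap4, a sperm aminopeptidase gene, lies within its locus. mtd had a gene level of 0.85 in SG-bgcn and 706 in SC in the authors' deposited table, and Tim17b1 lies within its locus. IA-2 had 0.03 in SG-bgcn and 1505 in SC with gNacalpha and CG4375 within it, and Ndae1, an anion exchanger, had 0.88 in SG-bgcn and 2131 in SC with CG43799 and CG43800 within it in the authors' deposited table. exu, an mRNA-localising protein with a role in spermatogenesis, had a gene level of 5.2 in SG-bgcn and 1478 in SC and no such gene within its locus. The part of nested genes in these gene levels was not tested; without the 66 genes 420 were called higher in SG-bgcn and 98 higher in SC.

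Near the threshold, Ranbp21, an exportin for small RNAs, lay just inside at an FDR of 0.0499 with a share of 1.21% in SG-bgcn and 0.732% in SC in the authors' deposited table. RhoGAP71E lay just outside at 0.051 with a share of 17.5% in SG-bgcn and 0.812% in SC, which is further from SC than that of Ranbp21.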

How the data were processed

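The authors deposited 4 tables, each with 1 gene per row and a mitotic group set against SC. A row holds a p-value and its FDR, a fraction from 0 to 1, log2 folds of this fraction, of the extension and of the gene, and positions and lengths in bases. The fraction is headed "long/3’total reads" without a definition of these terms. It is called the extension share here and printed as a percentage. The extension and gene levels are the authors' averages over the libraries of a group, a score whose unit is not named. In the deposited table the fraction was the ratio of extension to gene level, with 1e-05 added to each and a cap of 1, in every row. Per the submitters' processing notes the build was dm6 and the tools included TopHat2 2.1.0 and Trimmomatic 0.33, Cufflinks and Cuffdiff 2.2.1, DESeq2, CASAVA and FastQC 0.11.3, with no role assigned. The test behind P, the definition of an extension and the strand setting are unknown here. No value per library was used, so depth and replicate spread are unknown, and nothing says that libraries of 1 group stem from separate flies. All sample columns were used (0 left out).

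A gene was called at the authors' FDR of 0.05 or less, and its direction is that of the authors' log2 value for the share. This follows the branch planned for tables of the authors' own comparisons. Computation used Python 3.11.15 and pandas 2.3.3. The number of tests was recovered per direction from the ratio of P to FDR and checked on simulated p-values, where 10 of 10 draws gave the exact number in both directions. The simulated p-values were themselves adjusted by Benjamini-Hochberg per direction. The check therefore covers the recovery and cannot show how the authors adjusted theirs. Extensions were set against Ensembl release 115 (BDGP6.54, the assembly of dm6), which matched 610 of 618 gene identifiers, 605 with an identical locus. Transposable elements and the gene's own symbol were not counted as other genes, and all coordinates count from 1.

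The members, gene lists and rules were chosen with earlier results of these data known. Lists were edited after the symbols had been seen, by dropping mismatched symbols and adding members by function, and none was tested. Named genes are bgcn, bam, tut and mei-P26; in each list the called members with the largest fold of the share and values above 0, at most 5; the 10 largest folds each way with a gene level of at least 1; the 8 largest each way among genes of no other mutant table and among genes of all 3 mutant tables; the 8 highest extension levels per group; the 8 largest folds at a steady gene level; and the 3 genes on each side of the FDR threshold. CG17237, MED11, N, Pk34A, Prosalpha4T2, Rab6, RpL5, S, Sec24AB, Stat92E, Taf4, Trf2, YT521-B, alpha-Cat, ctp, how, mbl, mtd, robl37BC, sdt, soti, stg and tyf lie outside this rule and were chosen after their values were seen.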

Additional observations from a re-analysis of the deposited data

How the results depend on the processing

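The counts of called genes by direction, the count of genes of no other mutant and the median lengths and shares by direction were recomputed under other thresholds, and 22 of 28 values stayed within 1.5 times the reported value. Other counts were not recomputed. The called genes higher in SC were 71 with a gene level of at least 1 in both groups and 85 with an extension above 0 in both. The median share in SG-bgcn was 11.3% for genes higher in SG-bgcn and 0.313% for genes higher in SC with a gene level of at least 1. Chosen after seeing the data, a 16-fold difference of the extension left 283 genes higher in SG-bgcn, and asking for an identical extension in the other table raised the genes of no other mutant to 412. The share of calls higher in SG-bgcn stayed between 70.9% and 83.4% under these settings. The cause was not tested where the setting itself, fewer genes admitted, does not give it. No paired analysis was possible because the tables hold group averages only, and leaving out each library in turn was not run for the same reason. Group averages, an unnamed unit and unknown depth limit every value, and a gene or extension listed at 0 may be a failed estimate.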
